A study of Homo sapiens with 8 samples.

Results

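MYC and 8 genes that move or convert glutamine were followed in MOLM13 cells, a line derived from human acute myeloid leukemia. The cells were studied after knockdown and restoration of the RNA-binding protein IGF2BP2. The 9 genes are MYC, the transporter genes SLC1A5, SLC38A1, SLC38A2, SLC7A5 and SLC3A2, and the enzyme genes GPT2, GLUL and GLUD1. They were chosen by symbol, because MYC, GPT2 and SLC1A5 have been reported as targets of IGF2BP2 in leukemia and the others act in the same pathway. All 9 are among the 35369 genes listed with a symbol, and all 9 are among the 13030 genes that passed the minimum level, a linear value of 1 ppm or more of the library sum in 2 or more libraries.

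Polyadenylated RNA was sequenced from 4 groups with 2 libraries each. In the rescue group, labelled as IGF2BP2 rescue, and in the mutant rescue group, labelled as rescue with a mutated form, the gene was given back. The knockdown group was depleted of IGF2BP2 by a short hairpin, and the control group was labelled wild type. The labels describe viral infection with polybrene for all samples, with puromycin where selection was needed. They do not say which mutation was used, which cells received an empty vector, or whether the 2 replicates of a group were separate cultures. The p-values therefore reflect no more than the scatter among these libraries, possibly a technical one. All groups come from the same cell line.

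IGF2BP2 binds messenger RNA that carries N6-methyladenosine and is known to stabilise its targets. MYC is a transcription factor that drives genes of ribosome production, nucleotide synthesis and amino acid uptake, and in many leukemia cells it is linked to a dependence on glutamine. Glutamine enters cells through SLC1A5 and the sodium-coupled SLC38 carriers, can leave in exchange for leucine through the SLC7A5 and SLC3A2 heterodimer, and is turned into glutamate and then 2-oxoglutarate, the last step by dehydrogenases and aminotransferases.

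Each value below is a normalized log2 value of the authors' table, and each difference is on that log2 scale. A gene was called where the Benjamini-Hochberg adjusted p of limma, over all 13030 genes, was under 0.05. With 2 libraries against 2, an exact permutation test of a single gene cannot go below p = 0.333, so calls rest on the spread shared across genes by limma. Transcript length is not removed from these values, so they do not rank genes by abundance.

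IGF2BP2 itself had log2 values of 11.36 and 11.13 in rescue, 11.03 and 10.68 in mutant rescue, 10.24 and 10.25 in knockdown, and 10.94 and 10.89 in control. Knockdown had the lowest libraries, with a difference of -0.67 from control (SE 0.13, limma adjusted p = 0.0147), or 1.59-fold. This call was not kept in every fit with 1 library left out. Rescue minus mutant rescue was 0.39 for IGF2BP2 (SE 0.13, limma adjusted p = 0.0839), and 0.22 to 0.57 with 1 library left out. The part of this difference in the results between the rescue groups was not tested. All 14 myeloid leukemia markers examined, among them FLT3, HOXA9, MEIS1 and CD33, passed the minimum level, while none of 8 lymphoid or 8 erythroid markers did, and CD3E, MS4A1, HBA1, HBA2 and HBG1 were listed at 0. The summed level of 16 monocyte maturation genes was 8012 and 9278 ppm in rescue, 16539 and 24198 ppm in mutant rescue, 11676 and 11211 ppm in knockdown, and 2907 and 3486 ppm in control. One gene, the lysozyme gene LYZ, made up most of that sum, with 7013 and 8259 ppm in rescue, 15410 and 23184 ppm in mutant rescue, 10598 and 10124 ppm in knockdown, and 2363 and 2889 ppm in control. The other 15 genes summed to 999 and 1019 ppm in rescue, 1129 and 1014 ppm in mutant rescue, 1079 and 1088 ppm in knockdown, and 543 and 597 ppm in control. The summed level of 18 interferon-stimulated genes was 9446 and 10546 ppm in rescue, 2320 and 2257 ppm in mutant rescue, 369 and 380 ppm in knockdown, and 293 and 259 ppm in control. The spread of the monocyte sum among rescue, mutant rescue and knockdown was thus that of LYZ. The summed level of the other 15 genes was lower in control than in these groups, but a sum can hide single genes. In rescue against knockdown, S100A8 (-0.73), ITGAX (-0.75) and VCAN (-0.78) of the 16 were called lower and none higher. There 1.02% of all genes were lower and 3.22% higher. In rescue against mutant rescue, 4 of 16 were lower and none higher, with a median of -0.34. There 4.61% of all genes were lower and 5.9% higher. Not all of these calls held in every fit with 1 library left out. Both lists moved with the groups, and their part in the results below was not tested. The replicates of mutant rescue differed most, with an SD of the log2 difference over genes of 0.303, against 0.148 in knockdown. Setting the library medians equal changed the split of called genes in mutant rescue over knockdown (378 higher and 938 lower, against 727 and 746 as deposited) and in mutant rescue over control (1438 higher and 1891 lower, against 1810 and 1431).

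The promoters of the members are shown where the letters bear on factors that act in this pathway. RefSeq windows of 250 bases before a transcript start (GRCh38.p14) were at hand for 7 of the 9 members, 13 windows in all. On both strands, CACGTG, the E-box that MYC and its partner MAX bind, was present in 6.345% of all 35116 windows of that length, and TGATGNAAN, a form of the element through which ATF4 acts when amino acids are short, in 3.132%. The E-box was found in windows of SLC1A5 and SLC7A5, and the ATF4 element in a window of SLC1A5. The next lines give those matches with their neighbours, 5′ to 3′ on the minus strand, with the motif in capitals. The SLC1A5 E-box lies at chr19:46787326-46787355 and begins 50 bases before an inner start, the SLC1A5 ATF4 element lies at chr19:46784893-46784921 and begins 97 bases before a further inner start, and the SLC7A5 E-box lies at chr16:87869620-87869649 and begins 130 bases before the start.
SLC1A5 E-box: ggcgggagtggtCACGTGgacaggacgggg
SLC1A5 ATF4 element: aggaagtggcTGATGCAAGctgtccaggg
SLC7A5 E-box: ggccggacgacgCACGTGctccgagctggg
The window before the outermost start of SLC1A5 (chr19:46788595-46788844) and both windows of SLC38A1 (chr12:46266517-46266766 and chr12:46267988-46268237), the member with the most calls, hold neither motif. All are on the minus strand. In GENCODE v29 the SLC38A1 gene reaches 46270017, upstream of the outer start shown here, and no window before that base was searched.
SLC1A5 outermost start: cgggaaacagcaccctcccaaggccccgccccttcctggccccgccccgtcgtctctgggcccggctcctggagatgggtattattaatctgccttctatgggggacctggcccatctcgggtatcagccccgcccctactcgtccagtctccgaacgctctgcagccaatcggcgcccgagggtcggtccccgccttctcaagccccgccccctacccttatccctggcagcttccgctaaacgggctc
SLC38A1 inner start: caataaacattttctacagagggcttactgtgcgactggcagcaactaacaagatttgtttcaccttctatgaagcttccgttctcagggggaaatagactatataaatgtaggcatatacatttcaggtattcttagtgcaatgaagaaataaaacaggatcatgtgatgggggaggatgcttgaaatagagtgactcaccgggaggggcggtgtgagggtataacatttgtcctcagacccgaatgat
SLC38A1 outer start: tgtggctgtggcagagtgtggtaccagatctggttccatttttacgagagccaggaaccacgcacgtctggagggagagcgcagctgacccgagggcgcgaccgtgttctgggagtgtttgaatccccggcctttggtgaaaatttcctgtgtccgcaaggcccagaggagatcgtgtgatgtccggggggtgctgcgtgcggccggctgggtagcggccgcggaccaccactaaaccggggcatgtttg
A match describes letters only, and no match says nothing of binding elsewhere.

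The transcripts were also searched for UGGAC, a sequence reported within the RNA sites of IGF2BP proteins. In the longest protein-coding GENCODE v29 transcript of each of 11727 tested genes, the median was 1.12 per kilobase. SLC3A2 had 6 copies in 2222 bases, or 2.70 per kilobase, more than 93.6% of genes. SLC1A5 had 6 copies in 2882 bases, or 2.08 per kilobase, more than 85.1% of genes. MYC had 2 copies in 2366 bases (0.845 per kilobase) and SLC38A1 had 7 in 8066 bases (0.868 per kilobase), both under the median, while GPT2 had 5 in 4228 bases (1.18 per kilobase). Of the 9 members, 5 lay above the median. Which transcripts these cells used was not analysed here.

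**Figure D1:**
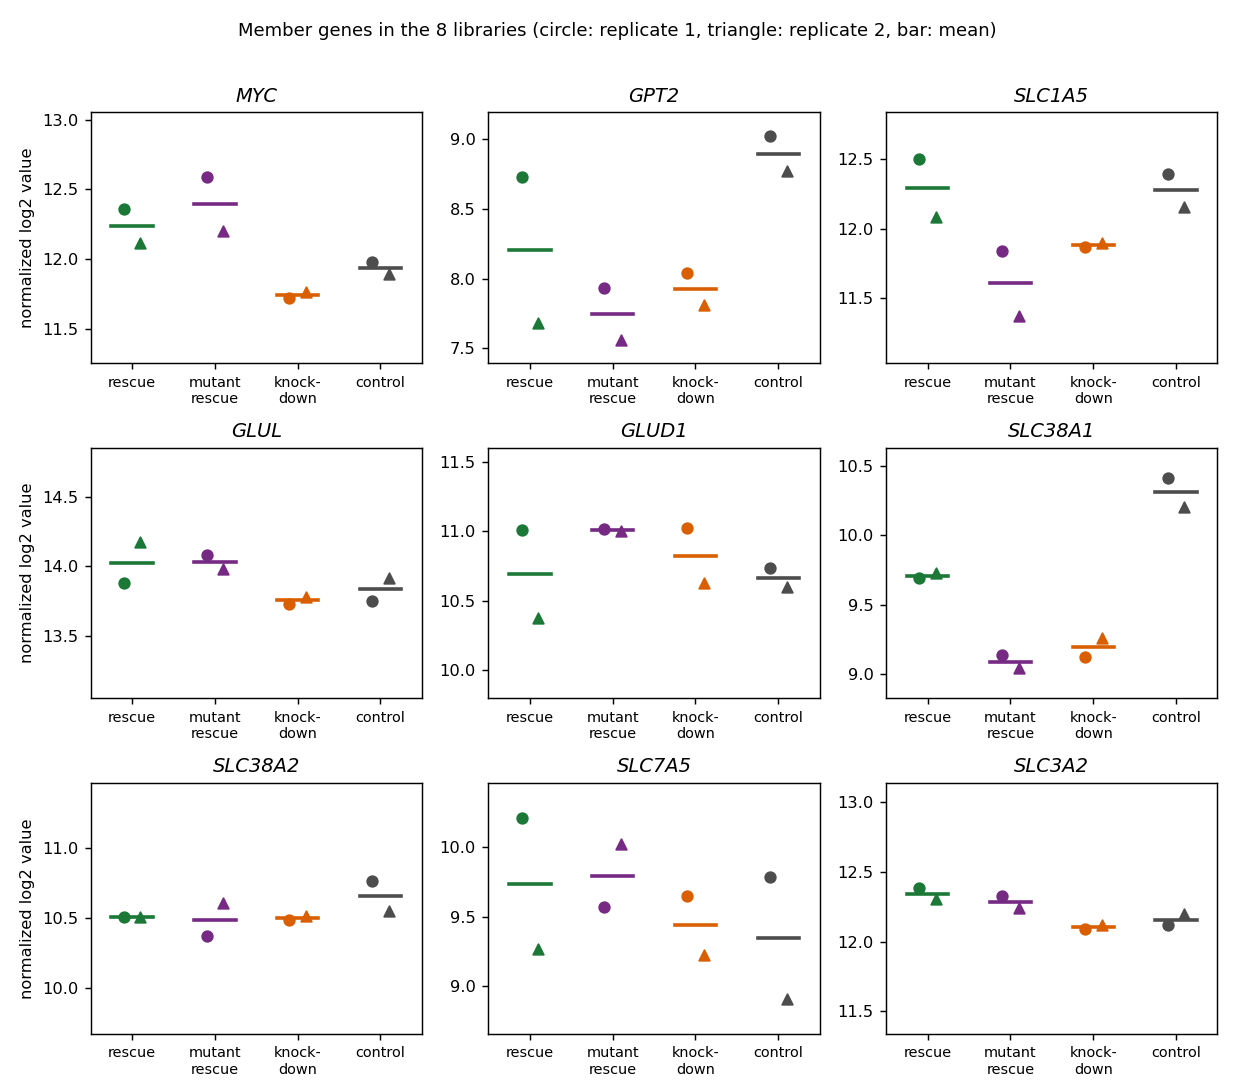
Normalized log2 value (vertical axis) of each of the 9 members in rescue, mutant rescue, knockdown and control, with circles for replicate 1, triangles for replicate 2 and bars for the mean of 2 libraries. SLC38A1 has both rescue libraries, at 9.69 and 9.73, between the control libraries above and the mutant rescue and knockdown libraries below, while MYC is lowest in knockdown, at 11.72 and 11.76.

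MYC was higher in mutant rescue than in knockdown and in control, and it was not called in knockdown against control. MYC (chromosome 8, 127735434 to 127741434, plus strand, GRCh38, protein coding) had log2 values of 12.36 and 12.12 in rescue, 12.59 and 12.20 in mutant rescue, 11.72 and 11.76 in knockdown, and 11.98 and 11.89 in control. The knockdown libraries were the lowest, the control libraries came next without overlap, and the libraries of the rescue groups overlapped each other above both. Mutant rescue exceeded knockdown by 0.65 (SE 0.14, limma adjusted p = 0.0290), a 1.57-fold difference, and MYC was the only member called there, against 11.3% of all genes. Mutant rescue also exceeded control by 0.46 (SE 0.14, adjusted p = 0.0425). The difference of rescue over knockdown was 0.50 (SE 0.14) and did not pass (adjusted p = 0.0886), and that of knockdown minus control was -0.19 (adjusted p = 0.394). The test of rescue against mutant rescue gave -0.15 (SE 0.14, adjusted p = 0.477).

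These MYC comparisons share libraries and are not independent of each other. In the authors' deposited table the log2 change of MYC was 0.61 in rescue over knockdown (adjusted p = 0.000532), 0.77 in mutant rescue over knockdown (adjusted p = 0.00312), 0.59 in mutant rescue over control (adjusted p = 0.0539) and -0.28 in knockdown over control (adjusted p = 0.118). The MYC call in mutant rescue over knockdown did not hold with knockdown replicate 1 or 2 left out (limma adjusted p = 0.168 and 0.180), with no minimum level (0.0632) or when only these groups were fitted (0.0716). That over control was lost without mutant rescue replicate 1, either knockdown library or either control library (adjusted p between 0.0797 and 0.157), with no minimum level (0.0933), with equal library medians (0.0662) and when only these groups were fitted (0.101). Rescue over knockdown passed without either mutant rescue library (adjusted p = 0.0273 and 0.0272) and when only these groups were fitted (0.0317). LYZ was also highest in mutant rescue. Of the 16 monocyte maturation genes, LYZ (1.09, limma adjusted p = 0.0257) and CD14 (0.38, adjusted p = 0.0367) rose in mutant rescue against knockdown, where 5.58% of all genes were higher. The list median was 0.03 against 0.05 over all genes. CD14 had low log2 values, 4.48 and 4.43 in mutant rescue and 4.12 and 4.03 in knockdown. Neither call held in every fit with 1 library left out. In bulk RNA, fewer cells of a type and less RNA per cell cannot be told apart, here and for every gene below.

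SLC38A1, a sodium-coupled importer of glutamine and other small neutral amino acids, fell in knockdown against control, rose in rescue against knockdown, and was higher in rescue than in mutant rescue. SLC38A1 (chromosome 12, 46183063 to 46270017, minus strand, protein coding) had log2 values of 9.69 and 9.73 in rescue, 9.14 and 9.04 in mutant rescue, 9.12 and 9.26 in knockdown, and 10.41 and 10.20 in control. Rescue stood apart from each of the other groups, between control and the overlapping libraries of mutant rescue and knockdown. In knockdown SLC38A1 was 2.16-fold lower than in control, a difference of -1.11 (SE 0.11, limma adjusted p = 0.00127). It was the only member of 9 called in that comparison, against 12.8% of all genes. When only knockdown and control were fitted, GPT2 and SLC1A5 were called as well, and with equal library medians GPT2 was.

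Rescue exceeded knockdown in SLC38A1 by 0.52 (SE 0.11, adjusted p = 0.0380), again as the only member called, against 4.24% of all genes. Mutant rescue minus knockdown was -0.11 (SE 0.11, adjusted p = 0.529). The direct test between the rescue groups gave 0.62 in favour of rescue (SE 0.11, adjusted p = 0.0130). There 2 of the 9 members were called, SLC38A1 and SLC1A5, against 10.5% of all genes. Rescue minus control was -0.60 for SLC38A1 (SE 0.11, adjusted p = 0.0147), the only member called, against 7.18% of all genes. In mutant rescue it was 2.33-fold lower than in control (difference -1.22, adjusted p = 0.000242), where 4 of 9 members were called against 24.9% of all genes.

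The calls of SLC38A1 in knockdown and in mutant rescue against control held under each alternative tried. Rescue over knockdown was lost when any 1 library of those groups was left out (adjusted p = 0.154 and 0.169 without a rescue library, 0.321 and 0.184 without a knockdown library) and with no minimum level (0.0764). Rescue over mutant rescue was lost without rescue replicate 2 (0.0876) and when only the rescue groups were fitted (0.0724). Rescue against control was lost without rescue replicate 1, rescue replicate 2 or control replicate 1 (0.0765, 0.0862 and 0.0829). In the authors' deposited table the log2 changes of SLC38A1 were -1.47 in knockdown over control, 0.67 in rescue over knockdown and -0.80 in mutant rescue over rescue.

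SLC1A5, the main plasma membrane exchanger that brings glutamine into proliferating cells, was lower in mutant rescue than in rescue and in control. SLC1A5 (chromosome 19, 46774883 to 46788594, minus strand, protein coding) had log2 values of 12.50 and 12.09 in rescue, 11.84 and 11.37 in mutant rescue, 11.87 and 11.90 in knockdown, and 12.39 and 12.16 in control. The rescue and control libraries overlapped each other and lay above all knockdown and mutant rescue libraries. Rescue exceeded mutant rescue by 0.68 (SE 0.18, limma adjusted p = 0.0472), and mutant rescue minus control was -0.67 (SE 0.18, adjusted p = 0.0291). Knockdown minus control was -0.39 (SE 0.18, adjusted p = 0.194) and rescue minus knockdown was 0.41 (SE 0.18, adjusted p = 0.261), and neither passed.

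Both SLC1A5 calls were near the threshold. Rescue over mutant rescue kept its call only without mutant rescue replicate 1 (difference 0.92, adjusted p = 0.0107) among the fits that left out a library. Leaving out mutant rescue replicate 2, the lowest library, gave 0.45 for rescue minus mutant rescue (adjusted p = 0.166) and -0.43 for mutant rescue minus control (adjusted p = 0.120). Over the remaining 6 libraries, each left out in turn, the adjusted p of the first of these lay between 0.0692 and 0.178, and the second was lost without either knockdown library (0.0541 and 0.0540) or either control library (0.158 and 0.0620). With no minimum level both were lost (0.106 and 0.0726). In the authors' deposited table SLC1A5 changed by -0.52 in knockdown over control (adjusted p = 0.00255) and 0.51 in rescue over knockdown (adjusted p = 0.0359). It changed there by -0.81 in mutant rescue over rescue (adjusted p = 0.0288) and -0.76 in mutant rescue over control (adjusted p = 0.0156). In a limma fit of only knockdown and control the adjusted p was 0.0337. Exons of AC008622.2 overlap those of SLC1A5 on the opposite strand by 780 bases, and whether the counting used strand is not stated in the labels or the table.

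**Figure D2:**
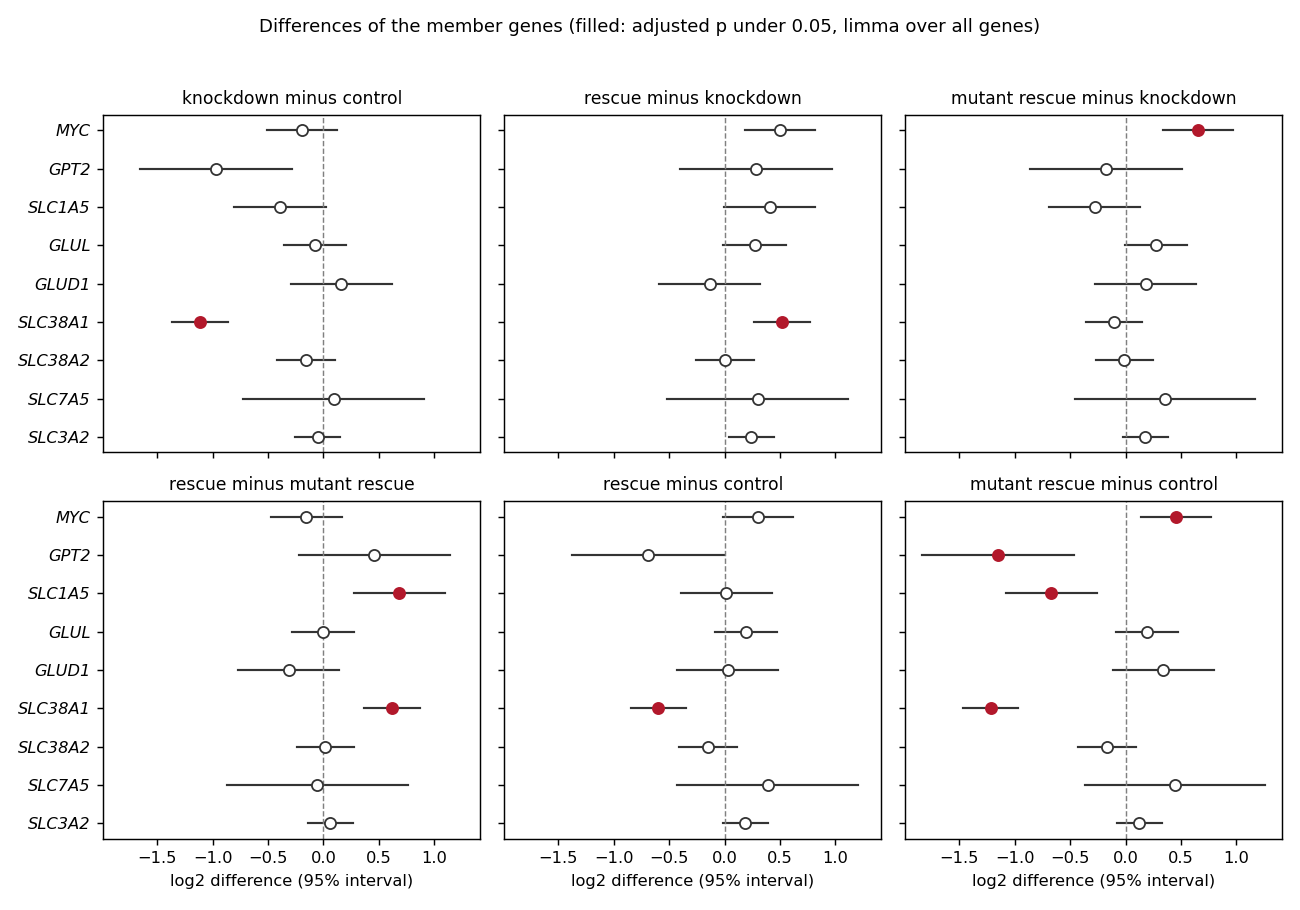
Log2 difference (horizontal axis) of each member in the 6 comparisons with its 95% interval from limma, filled where the adjusted p over 13030 genes was under 0.05. SLC38A1 is filled in 5 of the 6 panels, at -1.11 in knockdown minus control, and the widest intervals belong to SLC7A5 and GPT2.

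SLC38A2, a close relative of SLC38A1 that cells induce when amino acids run short, was not called in any comparison. Its log2 values were 10.51 and 10.51 in rescue, 10.37 and 10.61 in mutant rescue, 10.48 and 10.52 in knockdown, and 10.77 and 10.55 in control. Control lay above rescue and knockdown by a gap of 0.04 and 0.03 between the nearest libraries, and mutant rescue overlapped all groups. Its differences ran from -0.17 in mutant rescue minus control (adjusted p = 0.296) to 0.02 in rescue minus mutant rescue (adjusted p = 0.930). SLC38A2 (46358189 to 46372867, minus strand) and SLC38A1 are neighbours in position on chromosome 12.

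SLC7A5 and SLC3A2 encode the light and heavy chains of the LAT1 exchanger, which takes up leucine and other large neutral amino acids. SLC7A5 (chromosome 16, 87830023 to 87869488, minus strand) had log2 values of 10.21 and 9.26 in rescue, 9.57 and 10.02 in mutant rescue, 9.65 and 9.23 in knockdown, and 9.79 and 8.91 in control. Every group overlapped every other, and the difference between replicates in rescue (0.94) and in control (0.88) exceeded that of 99.4% and 99.7% of tested genes. The largest difference of SLC7A5 was 0.45 (SE 0.36, mutant rescue minus control, limma adjusted p = 0.379). Its 95% interval ran from -0.37 to 1.26, so changes of that size, and larger ones within the interval, were not resolved. SLC7A5 is also a member with an E-box among the sequences shown above. Its exons overlap those of AC126696.2 on the opposite strand by 271 bases.

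SLC3A2 (chromosome 11, 62856102 to 62888875, plus strand) had log2 values of 12.39 and 12.30 in rescue, 12.33 and 12.24 in mutant rescue, 12.09 and 12.12 in knockdown, and 12.12 and 12.20 in control. Both rescue groups lay above knockdown and control, which overlapped each other. Rescue minus knockdown was 0.24 (SE 0.09, adjusted p = 0.181), mutant rescue minus knockdown was 0.18 (adjusted p = 0.193), and no comparison passed.

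Among the enzymes, GPT2, the mitochondrial alanine aminotransferase that turns glutamate and pyruvate into 2-oxoglutarate and alanine, was lower in mutant rescue than in control. GPT2 (chromosome 16, 46884378 to 46931297, plus strand, protein coding) had log2 values of 8.73 and 7.68 in rescue, 7.93 and 7.56 in mutant rescue, 8.04 and 7.81 in knockdown, and 9.02 and 8.77 in control. The control libraries were the highest, and rescue was split, with replicate 1 close to control and replicate 2 within the range of mutant rescue and knockdown. That gap of 1.05 between the rescue replicates exceeded the gap of 99.6% of tested genes.

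Mutant rescue minus control was -1.15 for GPT2 (SE 0.30, limma adjusted p = 0.0256), a 2.22-fold lower level. This call was lost without mutant rescue replicate 2 (adjusted p = 0.100), without control replicate 1 (0.142) or control replicate 2 (0.0765), and with no minimum level (0.0656). Knockdown minus control was -0.97 (SE 0.30) and missed the threshold (adjusted p = 0.0688). It passed without either rescue library (adjusted p = 0.0167 and 0.0165), when only these groups were fitted (0.00311) and with equal library medians (0.0472). In the authors' deposited table GPT2 changed by -1.42 in knockdown over control (adjusted p = 4.38e-08) and by -1.62 in mutant rescue over control (adjusted p = 4.63e-06). Rescue minus control was -0.69 (SE 0.30, adjusted p = 0.219), and without rescue replicate 1 it was -1.21 (adjusted p = 0.0211). Rescue minus knockdown was 0.28 (SE 0.30, adjusted p = 0.667) and turned to -0.24 without rescue replicate 1. No direction can therefore be given for GPT2 in rescue against knockdown. With 1 library left out, rescue minus control ran from -1.21 to -0.17.

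GLUL, glutamine synthetase, which makes glutamine from glutamate and ammonia, was not called. Its log2 values were 13.88 and 14.17 in rescue, 14.08 and 13.98 in mutant rescue, 13.73 and 13.78 in knockdown, and 13.75 and 13.92 in control. Both rescue groups lay above knockdown, with differences of 0.27 each (SE 0.12, adjusted p = 0.271 for rescue and 0.157 for mutant rescue), and knockdown overlapped control. Mutant rescue also lay above control, by a gap of 0.06 between the nearest libraries. GLUL lies on chromosome 1 (182381704 to 182392206, minus strand).

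GLUD1, mitochondrial glutamate dehydrogenase, was not called either. Its log2 values were 11.01 and 10.38 in rescue, 11.01 and 11.00 in mutant rescue, 11.02 and 10.63 in knockdown, and 10.73 and 10.60 in control. Mutant rescue lay above control, by 0.34 (SE 0.20, adjusted p = 0.236), and all other pairs overlapped. The replicates of rescue differed by 0.63 and those of knockdown by 0.39, more than 97.5% and 97.7% of genes. GLUD1 (chromosome 10, 87050486 to 87094866, minus strand) overlaps exons of SHLD2 on the opposite strand by 464 bases. It has a near-identical copy, GLUD2, and a pseudogene copy, GLUD1P3, between which reads could be split. GLUD2 did not pass the minimum level. GLUD1P3 had group means of 2.41 to 2.77 ppm, beside 115 to 135 ppm for GLUD1, and a split of reads was not tested.

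The wider pathway was examined in lists that hold none of the 9 members. Of 21 tested enzymes that use or make glutamine, glutamate or their products, 4 fell and none rose in knockdown against control, where 7.44% of all genes were lower and 5.35% higher. The list's median difference was -0.13, against 0.01 over all tested genes. The 4 were GMPS, which makes GMP from XMP and glutamine (-0.54, limma adjusted p = 0.0181), the serine pathway transaminase PSAT1 (-0.51, adjusted p = 0.0212), the asparagine synthetase ASNS (-0.50, adjusted p = 0.0221) and the proline synthesis enzyme PYCR1 (-0.41, adjusted p = 0.0232). None of the 21 was called when any 1 of the knockdown or control libraries was left out.

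None of these enzymes passed in rescue against knockdown, where 3.22% of all genes were higher and 1.02% lower, and a fit limited to these groups called 2 higher and 1 lower. PYCR1, the enzyme with the highest mean log2 value, differed there by 0.32 (SE 0.09, limma adjusted p = 0.0914) and by -0.09 in rescue minus control (adjusted p = 0.655), where no enzyme was called either. The enzyme with a call between the rescue groups was CTPS1, which makes CTP from UTP and glutamine. CTPS1 had log2 values of 10.13 and 10.02 in rescue, 9.52 and 9.30 in mutant rescue, 10.27 and 10.15 in knockdown, and 10.25 and 10.14 in control. Both mutant rescue libraries stood below all others. Mutant rescue minus knockdown was -0.80 (SE 0.11, adjusted p = 0.00731), in a comparison with 5.58% of all genes higher and 5.73% lower. Rescue minus mutant rescue was 0.66 (SE 0.11, adjusted p = 0.0103), in a comparison with 5.9% of all genes higher and 4.61% lower. Without either knockdown library, no enzyme of the list was called in the first comparison. None was called in the second without either rescue library or in a fit limited to the rescue groups. In mutant rescue against control, where 11% of all genes were lower and 13.9% higher, 6 of the 21 fell, with CTPS1 at -0.78 (adjusted p = 0.00206), PSAT1 at -0.64 (adjusted p = 0.00455) and ASNS at -0.56 (adjusted p = 0.00816), and 2 rose, among them the proline breakdown enzyme ALDH4A1 (0.50, adjusted p = 0.0140). With 1 library left out, 4 to 9 fell and 0 to 5 rose. GLUD2, GPT, GLS2 and GFPT2 did not pass the minimum level.

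Among 20 other tested amino acid carriers, 5 rose and 1 fell in knockdown against control (5.35% of all genes were higher and 7.44% lower), with a median difference of 0.19 against 0.01 over all genes. Those that rose included the cystine and glutamate exchanger SLC7A11 (0.75, adjusted p = 0.00429), SLC43A2, a carrier of large neutral amino acids (0.65, adjusted p = 0.00440), and the lysosomal glutamine carrier SLC38A7 (0.68, adjusted p = 0.00668). SLC38A5, a glutamine and glycine carrier of the SLC38A1 family, fell by 0.45 on the log2 scale (adjusted p = 0.0162). None was called without either knockdown library.

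SLC38A5 had log2 values of 11.05 and 11.01 in rescue, 10.48 and 10.47 in mutant rescue, 10.30 and 10.33 in knockdown, and 10.69 and 10.83 in control. Rescue was the highest group and knockdown the lowest, with no overlap between any groups. Rescue exceeded knockdown by 0.72 (SE 0.09, limma adjusted p = 0.00254), the only carrier of the 20 called there (3.22% of all genes were higher). Rescue also exceeded mutant rescue by 0.56 (SE 0.09, adjusted p = 0.00889). In the second comparison SLC43A2 (-0.46, adjusted p = 0.0192) and SLC38A7 (-0.45, adjusted p = 0.0322) were lower in rescue (5.9% of all genes were higher and 4.61% lower). No carrier was called in rescue over knockdown without knockdown replicate 1, nor in rescue against mutant rescue without rescue replicate 2 or in a fit limited to the rescue groups. In mutant rescue against knockdown, where 5.58% of all genes were higher, SLC43A2 rose (0.40, adjusted p = 0.0343), a call lost under most alternatives. In rescue against control, where 4.91% of all genes were higher and 2.27% lower, 3 of 20 rose, SLC43A2 (0.59, adjusted p = 0.00631), SLC1A3 (0.56, adjusted p = 0.0320) and SLC38A7 (0.45, adjusted p = 0.0392), and between 1 and 4 rose when 1 library was left out. In mutant rescue against control 5 of 20 rose, led by SLC43A2 (1.05, adjusted p = 0.000211), and 2 fell. Of all genes, 13.9% were higher and 11% lower there. Fewer carriers fell in every fit with 1 library left out, and the number that rose also changed in some of them.

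**Figure D3:**
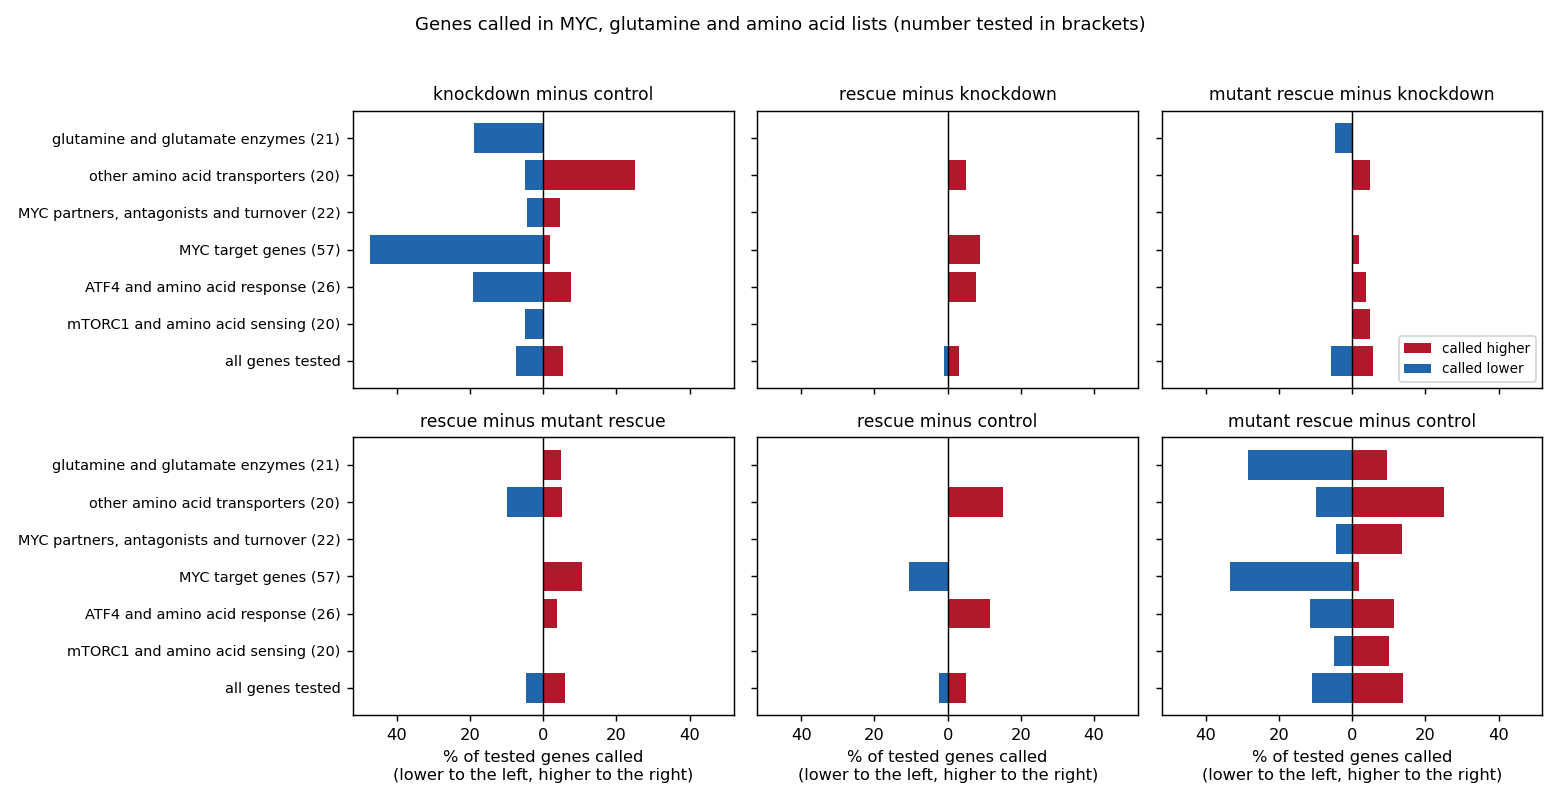
Share of tested genes of 6 MYC, glutamine and amino acid lists called lower (to the left) or higher (to the right), in percent, for the 6 comparisons, with all 13030 tested genes in the bottom bar of each panel. The longest bar among these lists is that of the MYC target genes in knockdown minus control, 27 of 57 lower, beside 7.44% of all genes.

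Many MYC target genes fell in knockdown against control, where MYC itself was not called. Of 57 tested targets, many of them genes of ribosome production, 27 fell and 1 rose, the hexokinase gene HK2. In that comparison 7.44% of all genes were lower and 5.35% higher. The median difference of the targets was -0.38 against 0.01 over all genes. HSPD1, a mitochondrial chaperonin (-0.61), the nucleolar gene NOLC1 (-0.57) and the uracil glycosylase gene UNG (-0.55) were among those with the smallest adjusted p. The list was fixed with its fall in these data already known, so its direction is not independent evidence. No target was called without either knockdown library, 5 fell without control replicate 2, and between 21 and 33 fell without each of the other libraries. With no minimum level 17 fell. The list's median lay between -0.42 and -0.37 in all of these fits.

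In rescue against knockdown, 5 of 57 MYC targets rose and none fell (3.22% of all genes were higher), with a median of 0.22. They included the replication helicase gene MCM5 (0.52, limma adjusted p = 0.0143) and the ribosome assembly genes GRWD1 (0.43, adjusted p = 0.0306) and WDR43 (0.45, adjusted p = 0.0306). The count was 0 when any 1 rescue or knockdown library was left out, 3 without either control library, 8 without either mutant rescue library, 1 with no minimum level, 1 with equal library medians, and 14 in a fit limited to these groups. In mutant rescue against knockdown, where MYC was called higher, 1 of 57 rose, TBRG4 (0.36, adjusted p = 0.0430), beside 5.58% of all genes. The median of the targets was 0.15 against 0.05 over all genes. Without mutant rescue replicate 1 there were 4 higher and 3 lower, and the other alternatives called 0 or 2.

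Between the rescue groups, 6 of 57 targets were higher in rescue, among them MCM5 (0.53, adjusted p = 0.0103), RCL1 (0.55, adjusted p = 0.0209) and PRMT3 (0.70, adjusted p = 0.0234), and none lower (5.9% of all genes were higher), with a median of 0.08. The count was 13 without mutant rescue replicate 1, 2 without mutant rescue replicate 2, 0 without either rescue library and between 1 and 3 without each of the others. It was 2 with no minimum level and 0 in a fit limited to the rescue groups. Against control, 6 targets fell in rescue (2.27% of all genes were lower) and 19 in mutant rescue (11% were lower), where 1 rose, with medians of -0.18 and -0.23. The counts of targets that fell were 1 to 8 in rescue and 11 to 24 in mutant rescue when 1 library was left out. They were 2 in rescue and 9 in mutant rescue when only the groups compared were fitted, and 2 in rescue with no minimum level. MYC itself stood above control in both rescue groups, by 0.31 (SE 0.14, adjusted p = 0.240) and 0.46.

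The mean log2 value of the 57 targets was 10.75 and 10.64 in rescue, 10.64 and 10.55 in mutant rescue, 10.50 and 10.49 in knockdown, and 10.85 and 10.87 in control. The target mean was thus highest in control, whereas MYC was highest in the rescue groups, and the knockdown libraries were the lowest for both. The groups differ in monocyte maturation genes in the same libraries, with 10 of 16 higher and none lower in knockdown against control (5.35% of all genes were higher and 7.44% lower).

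**Figure D4:**
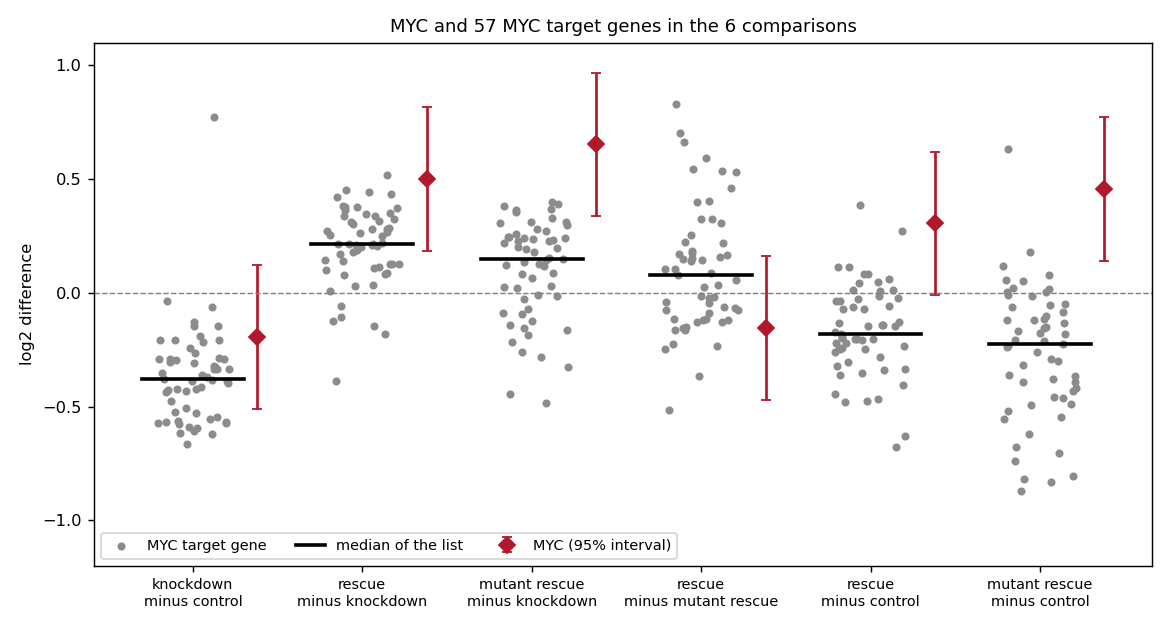
Log2 difference (vertical axis) of each of 57 MYC target genes (grey points), their median (black line) and MYC (red diamond with its 95% interval) in the 6 comparisons. In mutant rescue minus control MYC lies at 0.46 and the median of the targets at -0.23, while in rescue minus knockdown both are above 0, at 0.50 and 0.22.

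Of 22 tested partners, antagonists and regulators of MYC turnover, 2 were called in knockdown against control, where 12.8% of all genes were called. The MYC antagonist MXD1 rose (0.51, limma adjusted p = 0.0201) and SKP2, a ubiquitin ligase subunit, fell by 0.37 on the log2 scale (adjusted p = 0.0378). In rescue against knockdown, mutant rescue against knockdown, rescue against mutant rescue and rescue against control, none of the 22 was called. In mutant rescue against control, MXD1 (0.46), MLXIP (0.64) and MXD4 (0.84) rose and SKP2 fell by 0.38, in a comparison where 24.9% of all genes were called. The share of the list called was below that of all genes in each comparison. With 1 library left out, 0 to 1 rose and 0 to 1 fell in knockdown against control, and 0 to 7 rose and 0 to 1 fell in mutant rescue against control. The same fits called 0 to 5 higher and 0 to 1 lower in mutant rescue against knockdown, and 0 to 5 lower in rescue against mutant rescue.

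Genes of the amino acid response downstream of ATF4, which share PSAT1, ASNS and SLC7A11 with the lists above, were called in both directions. Of 26, 5 fell and 2 rose in knockdown against control (7.44% of all genes were lower and 5.35% higher), including SHMT2 (-0.46, limma adjusted p = 0.0196). In rescue against knockdown the stress factor gene ATF3 (0.83, adjusted p = 0.00831) and the glycine transporter gene SLC6A9 (0.34, adjusted p = 0.0411) rose. Of all genes, 3.22% were higher and 1.02% lower there, and with no minimum level 1 gene of the list rose. SLC6A9 had low log2 values, 4.76 and 4.72 in rescue and 4.44 and 4.35 in knockdown. EIF4EBP1, a translation repressor, rose in mutant rescue against knockdown (0.55, adjusted p = 0.0496), and no gene of the list was called higher there with no minimum level, with equal library medians, with only these groups fitted or without any 1 library other than mutant rescue replicate 1. Rescue exceeded mutant rescue in ATF3 (0.51, adjusted p = 0.0397). Of all genes, 5.58% were higher in mutant rescue than in knockdown, and 5.9% higher in rescue than in mutant rescue. Against control, 3 rose in rescue (4.91% of all genes were higher), and 3 rose and 3 fell in mutant rescue (13.9% were higher and 11% lower). The 3 in rescue became 0 when any 1 knockdown or control library was left out. Without either knockdown library no gene of this list was called in knockdown against control, and with 1 library left out 0 to 2 rose in rescue against knockdown.

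Of 20 genes of mTORC1 and its amino acid sensors, the kinase partner MLST8 fell in knockdown against control (-0.65, limma adjusted p = 0.0154) and the mTORC1 activator RHEB rose in mutant rescue against knockdown (0.42, adjusted p = 0.0384). None of the 20 passed in the comparisons of rescue with knockdown, mutant rescue or control, and LAMTOR2, the gene with the highest mean log2 value, differed by 0.11 in rescue minus knockdown (adjusted p = 0.731). In mutant rescue against control 2 rose, LAMTOR3 (0.54, adjusted p = 0.0179) and RHEB (0.41, adjusted p = 0.0199), and MLST8 fell by 0.45. The share of all genes called was 12.8% in knockdown against control, 11.3% in mutant rescue against knockdown and 24.9% in mutant rescue against control, and the list's share was lower in each. With 1 library left out, 0 to 1 fell in knockdown against control, 0 to 4 rose in mutant rescue against knockdown, 0 to 5 were lower in rescue than in mutant rescue, 0 to 1 fell in rescue against control, and 0 to 5 rose and 0 to 1 fell in mutant rescue against control. In fits of only the groups compared, none was called in mutant rescue against knockdown or against control.

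Genes whose log2 values, centred on their own mean, lay closest to those of MYC, GPT2 and SLC1A5 over the 8 libraries were sought among 4572 called genes, by root mean square difference. For MYC, whose own root mean square deviation was 0.28, they were HTATIP2 (0.0896), CSTF2T (0.102), PTTG1IP (0.104) and GPR89B (0.107). For GPT2, with a deviation of 0.53, they were NOP14 (0.186), GAL (0.201), HTATSF1 (0.214) and SLC39A8 (0.216). For SLC1A5, with a deviation of 0.33, they were CAMKK2 (0.108), VCP (0.110), TIMELESS (0.113) and ECT2 (0.115). These are descriptions of 8 libraries that share groups and normalization.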

How the data were processed

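MOLM13 polyadenylated RNA was sequenced in 4 groups of 2 libraries, grouped by the sample titles. Per the submitters' processing notes the tools were HOMER, kallisto and Trim Galore and the build GRCh38, without versions, roles or order. Per the file headers, HOMER's getDiffExpression.pl wrote the deposited table, with log2 values normalized across the 8 libraries by the authors. The values of low genes lie close together, so differences of low genes are understated. The authors also deposited log2 fold changes and p-values per pair of groups, the second group over the first. Counts are not used here, so depth is unknown and no counting error is given.

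All 8 libraries entered a limma model of group means (version 3.58.1, R 4.3.3), with empirical Bayes moderation, a mean trend and Benjamini-Hochberg adjustment over 13030 genes. The model was tested on simulated data in which each gene had the same spread in all groups. That test thus says nothing of the unequal spreads of the groups seen here. No pseudocount was added. Alternatives were no minimum level, equal library medians, only the groups compared, a replicate block, and leaving out each library. The genes named are the 9 members, IGF2BP2, up to 4 called genes per list and comparison with the smallest adjusted p (or, with none, that of highest mean), and the 4 closest in pattern to MYC, GPT2 and SLC1A5. Some genes that this rule names are not reported here. The members and lists were chosen with earlier results of these data known. Positions, exons and transcripts are from GENCODE v29 and promoters from RefSeq (GRCh38.p14).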

Additional observations from a re-analysis of the deposited data

How the results depend on the processing

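Of 648 member results recomputed, 566 kept direction and side of the threshold, 41 lost a call, 10 gained one and 31 changed sign, all 31 for differences that were not called. With no minimum level the genes called that moved by over 1.5 times were 1070 in knockdown minus control (1667 in the fit reported), 573 in mutant rescue minus knockdown (1473), 777 in rescue minus mutant rescue (1370) and 610 in rescue minus control (936). Fits of only the groups compared called 2620 in knockdown minus control, 1246 in rescue minus knockdown (553), 279 in mutant rescue minus knockdown, 192 in rescue minus mutant rescue and 1793 in mutant rescue minus control (3241). With 1 library left out, where a lone library is assumed to vary like the other groups, the genes and members called were 179 to 2359 and 1 to 2 in knockdown minus control, 176 to 864 and 0 to 2 in rescue minus knockdown, and 79 to 2801 and 0 to 1 in mutant rescue minus knockdown. They were 241 to 2870 and 0 to 2 in rescue minus mutant rescue, 361 to 1422 and 0 to 1 in rescue minus control, and 1440 to 3953 and 1 to 4 in mutant rescue minus control. Members called with no minimum level were 0 in rescue minus knockdown, 0 in mutant rescue minus knockdown, 1 in rescue minus mutant rescue and 1 in mutant rescue minus control. With only the groups compared they were 3 in knockdown minus control, 2 in rescue minus knockdown, 0 in mutant rescue minus knockdown and 0 in rescue minus mutant rescue, and with equal library medians they were 2 in knockdown minus control. The cause of these shifts was not tested.

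Equal library medians turned 4 differences near 0, GLUD1 (-0.0021) and SLC1A5 (-0.013) in rescue minus control, GLUL in rescue minus mutant rescue (0.028) and SLC38A2 in rescue minus knockdown (-0.013). Leaving out 1 library turned others. In knockdown minus control the ranges were -0.16 to 0.0036 for GLUL, -0.036 to 0.35 for GLUD1 and -0.35 to 0.53 for SLC7A5. In rescue minus knockdown they were -0.24 to 0.80 for GPT2, -0.45 to 0.18 for GLUD1, -0.0098 to 0.023 for SLC38A2 and -0.17 to 0.77 for SLC7A5. In mutant rescue minus knockdown they were -0.36 to 0.0078 for GPT2, -0.013 to 0.38 for GLUD1 and -0.13 to 0.11 for SLC38A2. In rescue minus mutant rescue they were -0.35 to 0.039 for MYC, -0.064 to 0.98 for GPT2, -0.15 to 0.14 for GLUL, -0.63 to 0.0024 for GLUD1, -0.10 to 0.14 for SLC38A2 and -0.53 to 0.42 for SLC7A5. In rescue minus control they were -0.19 to 0.22 for SLC1A5, -0.29 to 0.34 for GLUD1 and -0.083 to 0.86 for SLC7A5.

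Replicate numbers are shared by the groups, but replicate deviations of the same number correlated at -0.021 to 0.41 over the pairs of groups, not high in every pair, and no label ties the numbers to a shared culture or day, so the numbers were not taken to pair the samples. The replicate block changed 1 member's call, that of GPT2 in knockdown minus control (adjusted p = 0.0151), which made 2 members called there, and it called 1787 genes in that comparison and 3541 in mutant rescue minus control. Depth is unknown, and 2 libraries per group limit the precision.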

Other observations

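Mitochondrially encoded transcripts, which encode subunits of the respiratory chain, differed between the groups. The summed level of 13 such genes was 5215 and 5485 ppm in rescue, 7245 and 9478 ppm in mutant rescue, 7560 and 7790 ppm in knockdown, and 5640 and 7096 ppm in control. In the limma fit 5 of 13 were lower in rescue than in mutant rescue and 5 of 13 were higher in mutant rescue than in control (4.61% of all genes were lower in the first comparison and 13.9% higher in the second), with median differences of -0.72 and 0.58. With 1 library left out these counts lay between 0 and 8, and in fits of only the groups compared they were 0 and 2.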
